A study of Rattus norvegicus with 6 samples.

Results

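The comparison set brain tissue around an infarct in aged rats, taken 3 d after stroke, against brain tissue of naive aged rats. Its members were all genes that the arrays name. A probe set with 1 gene symbol stood for that gene, and where a gene had several probe sets the one with the highest mean over the 6 arrays of the series was used. This gave 14497 genes. Of these, 10947 (75.5%) had a value at or above the 40th percentile of an array on at least 1 of the 6 arrays and are described here, and 3550 did not. The quantity given for each gene is the log2 value of the aged 3 d array minus that of the aged naive array, so that a difference of 1 is a 2-fold difference. Each side was 1 array of 1 RNA pool. No difference therefore has a replicate check, no test was made, and 2-fold serves below as a threshold of size only.

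The aged 3 d pool held RNA of 23 male Sprague-Dawley rats of 19 to 20 months and 520 to 600 g body weight. Their infarct was made with a tungsten hook that transiently lifted the middle cerebral artery, and the tissue was the area bordering the infarct. The aged naive pool held RNA of 15 male rats of the same strain and weight range, 18 to 20 months old and without a stroke. The region of the naive tissue is not given in the labels, which describe it as healthy, whereas the series title speaks of the cortex on the side of the stroke. Other arrays of the series served as reference: young rats 3 d after the same procedure (19 rats, 3 to 4 months, 290 to 360 g), young naive rats (15 rats, 3 to 5 months, 290 to 360 g) and aged rats 14 d after stroke (23 rats, 19 to 20 months, 520 to 600 g). All rats of the series were male. Pooling hides the spread between animals. In bulk tissue, fewer cells of a type and less RNA per cell cannot be told apart.

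By way of background, an infarct kills the cells of its core, and in the tissue around it microglia become active and divide, monocytes and neutrophils enter from the blood, and astrocytes turn reactive. These cells clear debris, release chemokines and cytokines, and begin to build a scar of matrix, while neurons at the border lose or reduce many of their transcripts. The aged brain is known for microglia that already carry more antigen presentation molecules before any injury.

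Array medians of the log2 values ran from 7.09 to 7.151, and 40% of all probe sets lay below 6.556 on the aged naive array and below 6.567 on the aged 3 d array. Across 28826 probe sets the levels of these arrays correlated with r = 0.976, whereas the young and aged naive arrays correlated with r = 0.995 and the young and aged 3 d arrays with r = 0.991. Between the naive arrays, 18 genes (0.164% of 10947) were at least 2-fold higher in aged than in young rats, and 0 were at least 2-fold lower. They included the MHC class II genes Cd74 and RT1-Da and a set of regional genes (Th, Tph1, Slc6a3, Calb2 and Slc17a6), which are described below. Of 13 housekeeping genes, 0 were at least 2-fold higher and 0 lower, with a median difference of 0.046. The tissue label was checked on defining markers of brain, which were chosen outside the naming rule: Snap25, a synaptic protein of neurons, had levels of 12.72 on the naive and 12.42 on the 3 d array, Mbp of myelin 12.19 and 11.99, and Slc1a2, a glutamate transporter of astrocytes, 12.61 and 12.35. All of these lay above the upper quartiles of their arrays (8.599 and 8.612).

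At 3 d, 597 of the 10947 genes (5.45%) were at least 2-fold higher than in naive aged tissue and 74 (0.676%) were at least 2-fold lower, while 10276 (93.9%) lay within 2-fold. The large differences were on the side of higher levels: 126 genes were at least 4-fold higher against 5 lower, 21 were at least 8-fold higher against 0 lower, and 6 were at least 16-fold higher. Over all 10947 genes the median difference was -0.042, with quartiles of -0.261 and 0.241. Low levels bear on these sizes. Of the 597 genes, 186 lay below the 40th percentile of the aged naive array, and of the 74, 19 lay below that of the aged 3 d array, where array values flatten and folds can be understated. Those 186 genes, Fcrl2 and Top2a among them, reached the filter through other arrays than the aged naive one. A gene that reached it only through arrays on which it was high had to differ, which holds, among the genes named here, for Ccl7, Bub1, Kif20a, Nusap1, Cdkn3, Cdca8, Pole and Fam111a (3 d arrays), for Slc6a3 (naive arrays) and for Tph1, Pmch, Shox2, Slc18a2, Cga and Gabrq (aged naive array). The same holds for genes that reached the filter on the 3 d and 14 d arrays but on no naive array. Among these are Fcrl2, Lilrb4, Ifitm1, Top2a, Rrm2, Pttg1, Mmp12, Apobec1, Clec12a, Mx1, Casp1, Casp4, Il18 and Csf2rb. Gins1 reached the filter through the young 3 d array alone. With the young naive array as the reference in place of the aged one, 550 of the 597 genes were still at least 2-fold higher, but 44 of the 74 were still at least 2-fold lower.

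The gene furthest above its naive level was Fcrl2, an Fc receptor-like gene whose mouse counterpart, Fcrls, marks microglia, with 6.29 on the aged naive and 10.92 on the aged 3 d array, a 24.7-fold difference. Ccl2, the chemokine that draws monocytes out of the blood, stood at 6.55 and 11.14 (24.1-fold). Spp1, which encodes the secreted matrix protein osteopontin, stood at 7.73 and 12.31 (24-fold). These were followed by Lcn2 (lipocalin-2, an iron-scavenging acute phase protein, 6.6 and 10.8), S100a11 (a calcium-binding protein, 6.74 and 10.84) and Clec7a (dectin-1, a receptor for fungal glucans, 6.68 and 10.77). All 6 genes were at least 16-fold higher. Several of the 20 genes with the largest differences are known from phagocytes. Lgals3 (galectin-3) had a difference of 3.9, Lilrb4 (an inhibitory leukocyte receptor) of 3.88, Gpnmb (a glycoprotein of lipid-laden macrophages) of 3.84 and Cd68 (a lysosomal protein of macrophages) of 3.42. The others were Timp1 (3.8), Hspb1 (3.66), Ifitm1 (3.62), Top2a (3.49), Rrm2 (3.42), Pttg1 (3.4), Mmp12 (3.37), Apobec1 (an RNA-editing cytidine deaminase, 3.33), Clec12a (an inhibitory lectin of myeloid cells, 3.17) and Cybb (3.13). The value of S100a11 depended on the probe set, since its other probe sets differed by 1.26 and 2.40, while the other probe set of Rrm2 gave 3.12.

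**Figure D1:**
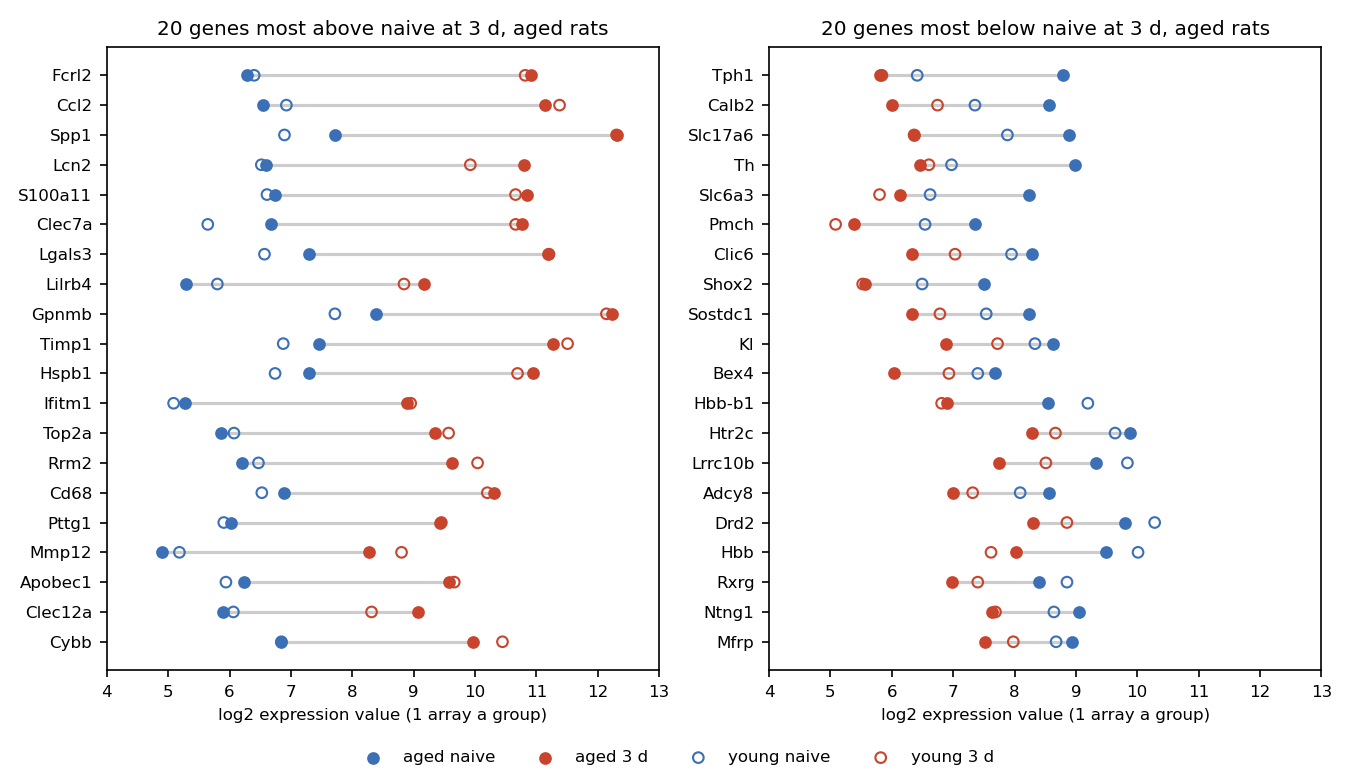
Log2 expression values of the 20 genes with the largest positive and the 20 with the largest negative differences between the aged 3 d and aged naive arrays (filled red and blue points, joined by a line), with the young arrays as open points; each point is 1 array of pooled RNA. On the left the young points lie close to the aged ones for most genes, whereas on the right the aged naive values of Tph1 (8.79), Th (8.98) and Slc6a3 (8.24) lie above the young naive values (6.41, 6.97 and 6.62).

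Among the ligands that call in leukocytes, most genes above the filter lay within 2-fold. The shares at least 2-fold higher were nonetheless above the 5.45% of all genes. Of 18 CC chemokines on the array, 7 were below the filter and 3 of the other 11 were at least 2-fold higher: Ccl2, Ccl6 (5.55 naive and 7.2 at 3 d) and Ccl7 (6.12 and 7.35). The median of the 11 was 0.085. It was 0.348 with the filter on the aged 3 d and aged naive arrays and 0.754 with the filter at the 60th percentile. Ccl3, which acts on monocytes and macrophages, differed by 0.9 and Ccl27 by -0.33. Among 10 CXC and CX3C chemokines that passed the filter, 3 were at least 2-fold higher. These were Cxcl16, which also serves as a scavenger receptor (8.08 and 10.22), the interferon-induced T cell attractant Cxcl10 (6.24 and 8.31) and the B cell attractant Cxcl13 (6.23 and 7.7). The neutrophil attractant Cxcl1 differed by only 0.33, and 6 of the 16 were below the filter. On the receptor side, Ccr2, the receptor for Ccl2, was low on the naive array and differed by 1.61 (5.32 and 6.93), and Cx3cr1, the fractalkine receptor of microglia, by 1.15 (10.36 and 11.52). The remaining receptors above the filter, Cxcr4 (0.54) among them, lay within 2-fold, and 7 were below the filter.

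Cytokine genes themselves differed less than genes for their receptors. Over all genes 5.45% were at least 2-fold higher. Of 16 cytokine genes above the filter 2 were at least 2-fold higher, Il18, an inflammasome product (6.02 and 8.37), and Tnfsf13b, the B cell survival factor BAFF (6.33 and 7.96). Il1a differed by 0.89, Csf1, a growth factor of microglia and macrophages, by 0.79, and the interleukin-1 antagonist Il1rn by 0.78. The genes of Il6, Tnf and Il10 were below the filter on all 6 arrays. Of 28 genes for cytokine receptors and their signalling, by contrast, 16 were at least 2-fold higher and 0 lower, with a median of 1.12. Csf2rb, the shared chain of the GM-CSF, interleukin-3 and interleukin-5 receptors, stood at 6.4 naive and 9.29 at 3 d. Osmr, the oncostatin M receptor, stood at 6.07 and 8.37, the G-CSF receptor Csf3r at 7.14 and 9.4, and the TNF receptor Tnfrsf1a at 7.08 and 9.08. Csf2ra (2.01) and Il17ra (1.77) were also over 2-fold higher, while Lifr (-0.076) and Bcl3 (0.090) were near their naive levels.

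Receptors of innate immunity were higher as a group. All 20 genes for pattern recognition receptors and the inflammasome that passed the filter had differences above 0, 15 of them at least 2-fold, with a median of 1.25. After Clec7a came Cd180, a relative of the toll-like receptors (7.51 and 10.07), the lectin Clec4a3 (5.52 and 7.91), Casp4, a caspase that senses lipopolysaccharide (5.95 and 8.3), and Tlr7, a receptor for single-stranded RNA (7.79 and 9.91). Casp1, which cleaves the interleukin-1 family cytokines, differed by 2.05, and the pore-forming protein Gsdmd by 0.52. For the Fc receptors and the kinases and adaptors that act downstream of them, 14 of 18 were at least 2-fold higher, with a median of 1.71. Fcgr2b, the inhibitory Fc gamma receptor, stood at 7.51 and 9.88, and the signalling chain Fcer1g at 9.66 and 11.93. The GTPase Rac2 differed by 2.68, Vav1, which activates it, by 2.03, and Sirpa, the receptor of the signal that restrains phagocytosis, by 0.32. All 5 measured subunits of the phagocyte NADPH oxidase, the enzyme of the oxidative burst, were at least 2-fold higher: Cybb (6.84 and 9.97), Rac2 (7.12 and 9.8), Ncf1 (7.09 and 9.0), Cyba (7.44 and 8.88) and Ncf4 (6.56 and 7.62). Nox4, an oxidase of other cells, was below the filter.

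Genes listed for microglia at rest were higher as well, although some of them, such as Itgam, are not particular to that state. Of 16 such genes, 14 were at least 2-fold higher and 0 lower, with a median of 1.3. Besides Fcrl2 these included the complement receptor chain Itgam (6.98 and 9.39), the fructose transporter Slc2a5 (7.59 and 9.89), the lipid receptor Trem2 (8.32 and 10.31) and its adaptor Tyrobp (9.52 and 11.35). The members that lay within 2-fold were Tmem119 (8.53 and 8.91), a gene of mature microglia, and Selplg (9.57 and 10.13). Of 26 genes known from phagocytes that take up lipid debris, 17 were at least 2-fold higher, with a median of 1.5. They were led by Spp1, Lgals3, Lilrb4, Gpnmb and Cd68, and Lyz2, a lysozyme, stood at 9.01 and 11.92. Apoe, already among the high values on the naive array, differed by 0.25 (12.39 and 12.65), and the lipoprotein lipase Lpl by -0.26.

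Genes of blood-borne myeloid cells were higher too, with gaps. Of 25 monocyte and neutrophil genes on the array, 18 passed the filter and 13 were at least 2-fold higher. Fcnb, a ficolin of neutrophils and monocytes, stood at 7.03 and 9.82, the neutrophil collagenase Mmp8 at 5.37 and 7.7, and the calcium-binding protein S100a4 at 7.05 and 9.33. The 7 genes below the filter on every array included the neutrophil granule genes Mpo, Camp, Ngp and Ltf and the alarmins S100a8 and S100a9, and Arg1 differed by 0.026. The median over all 25 was therefore 1.08, against 1.71 for those that passed. Of the lymphocyte genes 10 of 20 passed the filter, and 1 was at least 2-fold higher, against 5.45% of all genes. Their median was 0.020. This median depended on the filter, with 0.34 where it was set on the aged naive and aged 3 d arrays and 0.88 where it was set at the 60th percentile. That gene was Cd8b, a chain of the cytotoxic T cell coreceptor (5.83 and 6.86), followed by its partner Cd8a (6.21 and 7.09). Cd4, which rat macrophages also carry, differed by 0.59. The T cell receptor genes Cd3d, Cd3e and Cd3g, the B cell gene Ms4a1 and all listed mast cell genes other than Kit (-0.65) lay below the filter on all arrays.

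Interferon-stimulated genes, which cells switch on when interferon binds its receptors, were higher at 3 d. All 41 such genes of the list that the array measured passed the filter, 22 were at least 2-fold higher and 0 lower, with a median of 1.09. The membrane protein genes Ifitm1 (5.28 naive and 8.9 at 3 d) and Ifitm3 (7.75 and 10.08) and the dynamin-like GTPase Mx1 (5.7 and 8.15) restrict viruses. Ifi47 (7.18 and 9.38) and Gbp2 (6.7 and 8.66) encode interferon-induced GTPases, and Usp18 (5.34 and 7.32) a protease that damps the pathway. Not all members followed: Oas2 differed by 0.19 and Oas3 by -0.068. Genes of families with near-identical members (Ifitm, Oas and RT1) may be measured in part by the same probes, which makes each of their values uncertain. At 14 d the median of this list on the aged arrays was 2.25 above the same naive array, and Mx1 then stood at 10.07.

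The sequence that interferon-activated factors bind is known, and the promoters of these genes can be read beside the values. In the window from 250 bases before to 50 bases after the start of the gene in RefSeq (assembly GRCr8), the letters AAANNGAAA (N is any base, either strand) were found in 21 of 31 interferon-stimulated genes with a window (67.7%) and in 10 of 15 genes of MHC class I and peptide loading (66.7%). They were found in 7.65% of the windows of all 9051 described genes that had one, in 11.8% of all 33469 windows and in 3.57% of those of 28 mitosis genes. A match is a description of the letters and no measured binding site. The 150 bases before the start of 3 of the interferon-stimulated genes named above, whose differences were 2.33, 2.2 and 1.95, are shown 5′ to 3′ on the strand of the gene with the match in capitals. It begins 43 bases before the start of Ifitm3 (chr1:205541759-205541908, strand -), 50 before that of Ifi47 (chr10:33798594-33798743, strand +) and 31 before that of Gbp2 (chr2:234005577-234005726, strand +), and in the last 2 it reads on the opposite strand.
Ifitm3: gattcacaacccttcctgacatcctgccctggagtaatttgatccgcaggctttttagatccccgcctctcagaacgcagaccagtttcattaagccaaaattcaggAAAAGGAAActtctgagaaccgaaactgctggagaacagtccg
Ifi47: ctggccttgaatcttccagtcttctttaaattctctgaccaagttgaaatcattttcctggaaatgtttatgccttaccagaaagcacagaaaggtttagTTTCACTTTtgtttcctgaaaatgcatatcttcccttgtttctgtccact
Gbp2: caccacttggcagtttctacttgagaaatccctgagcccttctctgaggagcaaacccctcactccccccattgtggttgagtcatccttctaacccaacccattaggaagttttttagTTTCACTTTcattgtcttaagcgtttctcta

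Genes of antigen presentation were higher in both classes, with different leading members. For MHC class I and peptide loading, all 17 measured genes had differences above 0 and 6 were at least 2-fold higher, with a median of 0.76. They were led by the immunoproteasome subunit Psmb9 (6.72 and 8.34) and the peptide transporter Tap1 (7.16 and 8.48). The chaperones Calr and Pdia3, which also act outside this pathway, differed by 0.3 and 0.24. Of 15 class II genes 7 were at least 2-fold higher, and the genes that process antigen and load peptide led them. The lysosomal thiol reductase Ifi30 stood at 7.75 and 10.45, the peptide exchange factor genes RT1-DMb at 7.61 and 10.3 and RT1-DMa at 9.99 and 11.8, and the protease Lgmn at 9.9 and 11.69. The costimulatory genes Cd80 and Cd86 differed by 1.48 and 1.36.

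The presenting chains themselves were less far above their naive level in aged than in young rats, and their naive levels differed with age. Cd74, the invariant chain, stood at 10.36 on the aged naive and 11.25 on the aged 3 d array, against 8.37 and 11.67 on the young arrays. RT1-Da, the alpha chain of the DR-type molecule, stood at 8.01 and 8.84 in aged and 6.4 and 9.66 in young rats. RT1-Ba, the alpha chain of the DQ-type molecule, stood at 7.76 and 8.62 in aged and 6.55 and 9.26 in young rats. For all of these genes the aged naive array was the higher of the naive arrays by over 1, and the aged 3 d array was the lower of the 3 d arrays. RT1-Db1, a beta chain of the DR-type molecule, stood at 6.02 on the aged naive and 6.02 on the aged 3 d array, against 5.52 and 6.92 in young rats. The median of the list was 0.89 in aged and 1.71 in young rats, a difference that was not tested, and 1.59 in aged rats against the young naive array. By 14 d Cd74 stood at 12.58 and RT1-Da at 10.43 on the aged array. The gene of the class II master regulator, Ciita, was below the filter on all arrays.

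**Figure D2:**
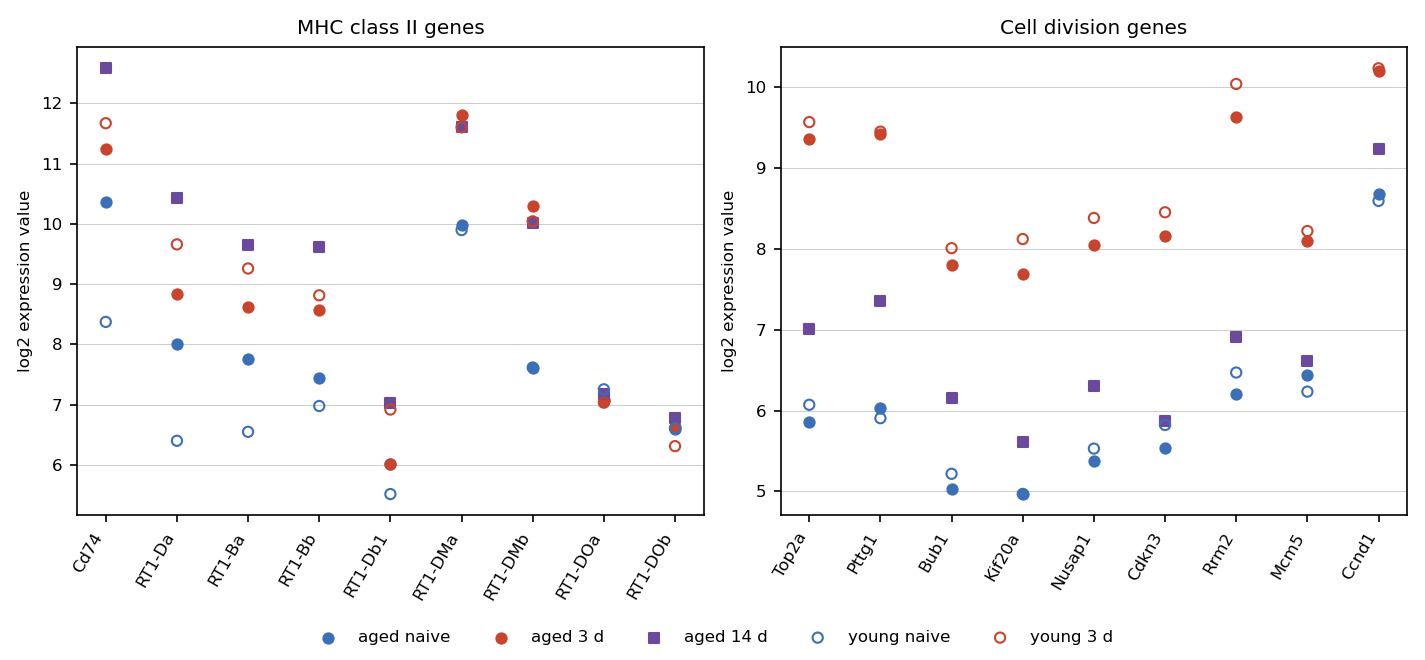
Log2 expression values of 9 MHC class II genes (left) and 9 genes of cell division (right) on the aged naive, aged 3 d, aged 14 d, young naive and young 3 d arrays, 1 point an array. For Cd74 and RT1-Da the aged naive points (10.36 and 8.01) lie above the young naive ones (8.37 and 6.40), whereas for Top2a the naive points of both ages (5.86 and 6.07) lie far below the 3 d points (9.36 and 9.57).

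Complement genes were higher mainly for the first component and the receptors. Of 18 genes 9 were at least 2-fold higher and 0 lower, with a median of 0.96, or 1.54 against the young naive array. C1qc, a chain of C1q, stood at 7.86 naive and 10.77 at 3 d and C1qb at 8.38 and 10.59. The receptor for the anaphylatoxin C3a, C3ar1, stood at 6.89 and 9.76, the integrin chain Itgb2 at 7.91 and 10.16, and the C1 inhibitor Serping1 at 8.31 and 10.54. C3, the central component, was named outside the rule because its naive levels set it apart. It stood at 9.61 on the aged naive and 9.96 on the aged 3 d array, a difference of 0.35, against 7.99 and 9.46 in young rats and 12.2 at 14 d in aged rats. Cd55, which protects cells from complement, differed by -0.13.

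Of the 60 lists, that of mitosis genes had the highest median at these settings. Against the young naive array the medians of NADPH oxidase (2.21) and of monocytes and neutrophils (2.1) lay above that of mitosis (1.96). That of monocytes and neutrophils was also slightly higher than it with the filter on the aged naive and aged 3 d arrays (2.09) and at the 60th percentile (2.25). All 34 measured mitosis genes passed the filter, 29 of them were at least 2-fold higher, and the median was 2.04. Top2a, the topoisomerase that untangles chromosomes, stood at 5.86 naive and 9.36 at 3 d. Pttg1, securin, which restrains the separation of sister chromatids, stood at 6.03 and 9.43. The checkpoint kinase Bub1 stood at 5.03 and 7.8, the kinesin Kif20a at 4.97 and 7.69, the spindle protein Nusap1 at 5.38 and 8.05, and the phosphatase Cdkn3 at 5.54 and 8.16. Each of these genes lay below the 40th percentile of the aged naive array and above that of the aged 3 d array. On the aged 14 d array Top2a stood at 7.01 and Kif20a at 5.61, and the list's median over naive was 0.36. For DNA replication and entry into S phase, 10 of 33 genes were at least 2-fold higher, with a median of 0.6. They were led by the ribonucleotide reductase subunit Rrm2 (6.21 and 9.63), the polymerase subunit Pole (5.62 and 7.39), the replication factor Gins1 (4.69 and 6.42) and the helicase subunits Mcm5 (6.44 and 8.1) and Mcm6 (6.29 and 7.82). Ccnd1, cyclin D1, which drives entry into the cycle, stood at 8.68 and 10.2, while Ccne1, cyclin E1, differed by 0.032.

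Promoters of cell division genes are known to carry elements that differ between the phases of the cycle. CCAAT, read on either strand, was found in 20 of 28 mitosis gene windows (71.4%), in 37.9% of the windows of all described genes and in 37.5% of all windows. It is no mark of mitosis genes alone, since 10 of 13 MHC class II windows (76.9%) held it. TTTGAA, the core of the cell-cycle homology region, was found in 21 of the 28 (75%), in 11.2% and 18.3% of those larger sets, and in 7.41% of the windows of 27 replication genes. TTTNGCGC, a form of the site of E2F factors, was found in 12 of those 27 (44.4%), in 2.15% of the windows of described genes, in 1.28% of all windows and in 3.57% of the mitosis windows. CCAAT and TTTGAA can share at most 1 base, and TTTNGCGC can overlap its own match on the opposite strand. The 150 bases before the start of mitosis genes with differences of 3.49, 3.4 and 2.68 are shown with CCAAT and TTTGAA, or their reverse complements ATTGG and TTCAAA, in capitals. In Top2a (chr10:84473094-84473243, strand -) they begin 57 and 22 bases before the start, in Pttg1 (chr10:28406327-28406476, strand -) 92, 51 and 29 bases before it, and in Nusap1 (chr3:127057145-127057294, strand +) CCAAT begins 65 bases before it.
Top2a: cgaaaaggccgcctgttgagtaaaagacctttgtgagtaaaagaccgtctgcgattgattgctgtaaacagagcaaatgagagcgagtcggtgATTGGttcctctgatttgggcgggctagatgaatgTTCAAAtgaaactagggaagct
Pttg1: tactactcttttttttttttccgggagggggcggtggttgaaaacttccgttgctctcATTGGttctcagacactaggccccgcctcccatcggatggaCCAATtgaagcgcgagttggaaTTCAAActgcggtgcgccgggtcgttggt
Nusap1: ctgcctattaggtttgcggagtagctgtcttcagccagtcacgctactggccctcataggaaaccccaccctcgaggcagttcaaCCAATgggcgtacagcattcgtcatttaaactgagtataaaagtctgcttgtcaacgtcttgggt

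The replication genes Gins1, Mcm6 and Mcm2, with differences of 1.73, 1.54 and 1.44, are shown in the same way with TTTNGCGC and its reverse complement in capitals. In each of them the matches on both strands overlap and form 1 stretch. It begins 25 bases before the start of Gins1 (chr3:160184770-160184919, strand +), 139 before that of Mcm6 (chr13:42404353-42404502, strand -) and 14 before that of Mcm2 (chr4:122918095-122918244, strand -).
Gins1: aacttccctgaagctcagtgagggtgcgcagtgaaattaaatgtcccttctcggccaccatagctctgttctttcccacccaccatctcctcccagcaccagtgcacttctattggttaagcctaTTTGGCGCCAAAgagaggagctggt
Mcm6: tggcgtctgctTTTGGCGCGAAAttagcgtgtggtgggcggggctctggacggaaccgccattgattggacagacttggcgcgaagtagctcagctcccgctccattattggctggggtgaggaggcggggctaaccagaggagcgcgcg
Mcm2: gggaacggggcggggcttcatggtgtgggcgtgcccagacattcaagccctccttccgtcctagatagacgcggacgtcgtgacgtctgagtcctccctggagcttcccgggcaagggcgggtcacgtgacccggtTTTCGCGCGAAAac

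Genes of reactive astrocytes were higher, whereas genes of resting astrocytes stayed near their naive levels. Of 28 reactive genes above the filter 17 were at least 2-fold higher and 0 lower, with a median of 1.57. Some are shared with phagocytes or vessels. Lcn2 led them, followed by Timp1 (7.46 naive and 11.27 at 3 d), the small heat shock protein Hspb1 (7.3 and 10.95), the membrane protein Emp1 (6.94 and 9.58) and Cd44, the hyaluronan receptor (6.55 and 8.93). Gfap, the intermediate filament that defines the list, was named outside the rule and stood at 10.96 and 12.41, against 9.96 and 12.23 in young rats. Serpina3n, a protease inhibitor of the acute phase, stood at 5.94 and 8.41 in aged and 6.16 and 10.4 in young rats. Ptgs2, the inducible cyclooxygenase, differed by -0.12 in aged and 0.9 in young rats. Of 17 genes of resting astrocytes 0 were at least 2-fold higher and 0 lower. They ran from the sodium pump subunit Atp1b2 (0.54) and the gap junction gene Gja1 (0.4) to the gap junction gene Gjb6 (-0.59) and the thyroid hormone transporter Slco1c1 (-0.68).

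Stress responses were uneven. Over all genes 5.45% were at least 2-fold higher, the share to set beside the counts of this paragraph. Of 19 chaperone genes 2 were at least 2-fold higher, Hspb1 and the collagen chaperone Serpinh1 (8.52 and 9.85), and the list's median was 0.19. The abundant chaperones Hspa8 (-0.010) and Hsp90ab1 (-0.015) were at their naive levels. The letters of the heat shock element core, TTCNNGAA, stood in 8 of 16 windows of this list (50%) and in 6.67% of those of all described genes. In the unfolded protein response of the endoplasmic reticulum, Atf3, a stress transcription factor, was the 1 gene of 17 that was at least 2-fold higher (6.59 and 7.7). Of 28 genes of heme, iron and antioxidant defence 8 were at least 2-fold higher, among them heme oxygenase Hmox1 (6.37 and 8.76), the metallothionein Mt1 (10.67 and 12.95), the phagosomal metal transporter Slc11a1 (6.51 and 8.6), the copper oxidase Cp (7.85 and 9.94) and the haemoglobin receptor Cd163 (6.53 and 7.6). The other probe set of Mt1 differed by 2.94. Mt3, the metallothionein of neurons and astrocytes, differed by -0.009. Among 23 genes of cell death 6 were at least 2-fold higher. Those with the largest differences were Casp4, Casp1, Bcl2a1 (1.66), Ripk3 (1.65) and Casp8 (1.34). The other one was Bak1, an effector of apoptosis (8.13 and 9.31). Its partner effector Bax (0.036) and the p53 regulator Mdm2 (0.025) were at their naive levels.

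Matrix genes differed by kind. Of 14 collagen genes 1 was at least 2-fold higher, Col12a1 (6.85 and 8.1), against 5.45% of all genes. The fibrillar genes Col1a1, Col1a2 and Col3a1 differed by 0.75, 0.66 and 0.54. At 14 d they stood 2.22, 2.15 and 1.88 above the same naive array. Of 35 glycoproteins and proteoglycans, 16 were at least 2-fold higher at 3 d, with a median of 0.85. After Spp1 these included periostin (Postn, 5.55 and 8.0), fibronectin (Fn1, 8.58 and 10.69), the collagen-binding lumican (Lum, 5.33 and 7.24) and neurocan (Ncan, 9.59 and 11.21), which inhibits axon growth. Among 33 proteases and inhibitors 16 were at least 2-fold higher. They were the macrophage elastase Mmp12 (4.9 and 8.27), the lysosomal protease Ctsc (8.06 and 10.67), Mmp8 and others, with the inhibitors Timp1, Serpina3n and Serping1. Mmp3, Mmp7, Mmp10 and Mmp13 were below the filter on all arrays, and the cysteine protease inhibitor Cst3 was at its naive level (0.020). Of 17 S100 and annexin genes 7 were at least 2-fold higher, with Anxa2 (7.97 and 10.7) and Anxa1 (6.16 and 8.31), which bind membranes, behind S100a11.

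Endothelial and barrier genes reached 2-fold about as often as all genes. Those of pericytes and smooth muscle and of meninges and fibroblasts did so more often. Of 29 endothelial and barrier genes 2 were at least 2-fold higher, endoglin (Eng, 8.83 and 10.45), a TGF-beta coreceptor, and Lyve1 (6.96 and 8.3), a hyaluronan receptor also found on macrophages, against 5.45% of all genes. A total of 25 were above 0, and the median was 0.31. The receptor tyrosine kinase Tie1 (1.0), the adhesion genes Pecam1 (0.91), Esam (0.89) and Cdh5 (0.83) came next. Of 15 genes of pericytes and smooth muscle 2 were at least 2-fold higher, the aminopeptidase Anpep (6.99 and 9.59) and the actin-binding Tagln (8.41 and 10.74). Rgs5, a marker of pericytes, differed by -0.066, and desmin (Des) by 0.81 in aged and 1.81 in young rats. Of 20 genes of meninges and fibroblasts 3 were at least 2-fold higher: Lum, the calcification inhibitor Mgp (7.93 and 9.25) and decorin (Dcn, 9.1 and 10.24). The median of that list was 0.41 at 3 d and 1.75 at 14 d over the same naive array. The beta-globin genes, which mark red cells, were lower: Hbb stood at 9.49 naive and 8.03 at 3 d and Hbb-b1 at 8.54 and 6.9, with -2.4 and -2.38 as the young differences. The blood content of the samples was not measured, and its part in the difference was not tested.

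Among growth factors and their receptors 5 of 48 were at least 2-fold higher and 0 lower, with a median of 0.089. Over all genes 5.45% were at least 2-fold higher, the share to set beside each list of this paragraph. Igf1, which microglia release after injury, stood at 7.61 and 9.91, Tgfb1, which acts on microglia and scar-forming cells, at 7.94 and 10.16, and its receptor Tgfbr1 at 8.64 and 10.51. Igfbp2, which binds insulin-like growth factors, stood at 8.01 and 9.37, and Met, the receptor of hepatocyte growth factor, at 6.22 and 7.49. Fgf13, an intracellular regulator of sodium channels in neurons, differed by -0.97, and Pdgfb by 0.003. Axon growth and injury response genes gave 3 of 35 at least 2-fold higher: the tubulins Tubb6 (7.35 and 9.3) and Tubb2b (10.07 and 11.11), and Atf3. Their median was -0.17. The peptidase gene Ecel1, a marker of injured peripheral neurons, differed by -0.62. Of 25 immediate early genes, Myc (5.94 and 7.29) and Atf3 were at least 2-fold higher, while the nuclear receptor Nr4a2 differed by -0.98 and Nr4a1 by 0.042.

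**Figure D3:**
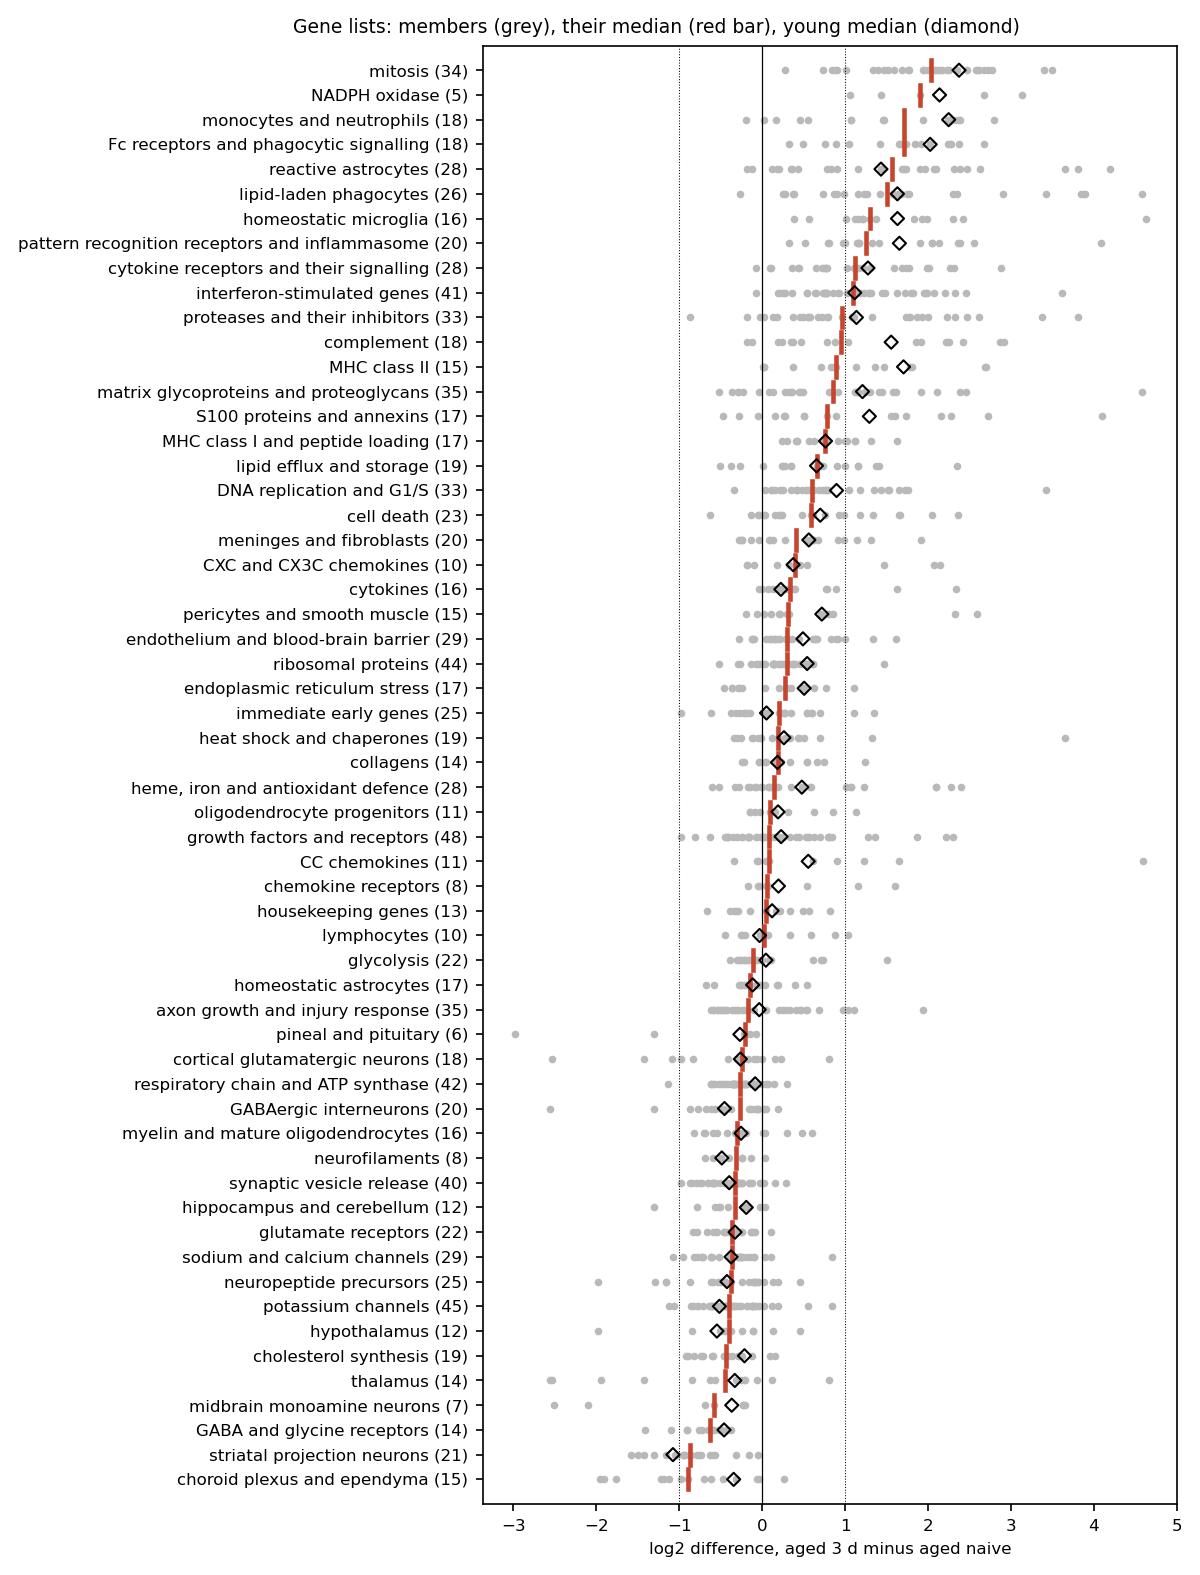
Log2 differences between the aged 3 d and aged naive arrays for the lists with at least 5 genes above the filter (number in brackets), with each gene as a grey point, the list's median as a red bar and the median of the young comparison as an open diamond; dotted lines mark 2-fold. Medians run from 2.04 for mitosis to -0.90 for choroid plexus and ependyma, against -0.042 for all genes.

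Lipid genes divided into those of storage and efflux and those of synthesis. Of 19 genes of efflux and storage 6 were at least 2-fold higher: the lipid droplet coat gene Plin2 (7.42 and 9.78), Soat1, which esterifies cholesterol (8.25 and 9.66), the fatty acid binding gene Fabp7 (9.76 and 11.14), the cholesterol exporter Abca1 (9.36 and 10.52), the lipoprotein receptor Scarb1 (8.12 and 9.28) and the lysosomal cholesterol carrier Npc2 (10.41 and 11.42). Of 19 genes of cholesterol synthesis 17 had differences below 0 and 0 were at least 2-fold lower, with a median of -0.43. The isomerase Idi1 stood at 7.51 and 6.59, the feedback regulator Insig1 at 10.02 and 9.13, and Msmo1 at 10.6 and 9.77. Their young differences were smaller, -0.12, -0.43 and -0.36. The other probe set of Insig1 differed by -1.09 in aged rats, past 2-fold. In glycolysis 1 of 22 genes was at least 2-fold higher, the hexokinase Hk2 (6.9 and 8.4), against 5.45% of all genes. Of 42 genes of the respiratory chain and ATP synthase 38 had differences below 0, with a median of -0.26 in aged and -0.084 in young rats. The gene with the largest difference was the iron-sulfur subunit Uqcrfs1, with 9.69 and 8.56 in aged and 9.41 and 9.36 in young rats. Ribosomal protein genes had a median of 0.29 over 44 genes, of which 1, Rpl18, was at least 2-fold higher (10.29 and 11.76).

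Neuronal genes were lower across most lists, by less than 2-fold for most members. Over all genes 0.676% were at least 2-fold lower. For synaptic vesicle release, 37 of 40 genes had differences below 0 and 0 were at least 2-fold lower, with a median of -0.32. The priming factor Unc13c (8.86 and 7.89) and the calcium sensors Doc2b (8.14 and 7.27) and Syt2 (9.48 and 8.64) were the furthest below. For glutamate receptors 21 of 22 were below 0, with a median of -0.36, and the metabotropic receptor Grm8 (-0.84) and the AMPA receptor subunit Gria4 (-0.78) led. All 14 GABA and glycine receptor genes above the filter were below 0, with a median of -0.63. The glycine receptor subunit Glra2 (7.83 and 6.41) and the GABA receptor subunit Gabra5 (10.35 and 9.25) were at least 2-fold lower. Of 45 potassium channel genes 40 were below 0, with a median of -0.39. Kcna4 (8.78 and 7.65) and Kcnc2 (10.2 and 9.14), which repolarise neurons, were at least 2-fold lower. Kcnn4, a channel known from microglia and lymphocytes, differed in the other direction (6.82 and 7.66). Of 29 sodium and calcium channel genes Scn3b was at least 2-fold lower (10.52 and 9.45), and the pacemaker channel Hcn4 differed by -0.96 against -0.28 in young rats. The neurofilament genes Nefm and Nefh differed by -0.69 and -0.59, and the tau gene Mapt by 0.033.

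Myelin genes lay slightly below their naive levels, with a median of -0.3 over 16 genes and none at least 2-fold higher or lower. Tspan2 (10.34 and 9.52), Ermn (11.13 and 10.43) and Mal (11.33 and 10.63) were the furthest below. Hapln2, a hyaluronan link protein of the nodes of Ranvier, was above its naive level in aged and below it in young rats, with 9.31 and 9.91 on the aged and 9.22 and 8.73 on the young arrays. In oligodendrocyte progenitors, versican (Vcan, 8.16 and 9.29), which other cells also make, was the 1 gene of 11 at least 2-fold higher. The share over all genes was 5.45%.

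Markers of striatal projection neurons formed the neuron list with the lowest median at these settings. All 21 genes above the filter had differences below 0 and 7 were at least 2-fold lower, with a median of -0.87 in aged and -1.08 in young rats. With the filter at the 60th percentile the median of midbrain monoamine neurons lay lower, at -2.31. Lrrc10b stood at 9.33 naive and 7.75 at 3 d, the dopamine receptor Drd2 at 9.81 and 8.31, the retinoid receptor Rxrg at 8.4 and 6.97, and the adenosine receptor Adora2a at 9.62 and 8.31. Tac1, the precursor of substance P, stood at 8.58 and 7.41, and Rgs9, which ends dopamine receptor signals, at 9.46 and 8.41. Against the young naive array, which lay higher for these genes, the difference of Drd2 was -1.98 and the median of the list -1.34. Cortical glutamatergic markers had a median of -0.25 over 18 genes, and 3 of them, Slc17a6, Ntng1 and Nrn1, were at least 2-fold lower. Slc17a6 and Ntng1 are also on the list of thalamic genes. Nrn1, which promotes neurite growth, stood at 10.35 and 9.27. For GABAergic interneurons the median was -0.27 over 20 genes, with the calcium-binding proteins Calb2 and Calb1 (9.64 and 8.33) at least 2-fold lower and Cck at its naive level (0.025). Of 25 neuropeptide precursors 4 were at least 2-fold lower: Pmch, Adcyap1 (8.29 and 7.0; -0.38 in young rats), Scg2 (10.35 and 9.19) and Tac1.

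The genes furthest below their naive level were markers of regions away from the cortex. For Tph1, Th and Slc6a3 the aged naive array stood apart. Tph1, the tryptophan hydroxylase of the pineal gland, stood at 8.79 on the aged naive array and at 5.81 on the aged 3 d, 6.23 on the aged 14 d, 6.41 on the young naive and 5.84 on the young 3 d array. Th, the enzyme that makes dopamine precursors in the midbrain, stood at 8.98 on the aged naive array, 6.47 at 3 d, 6.35 at 14 d, and 6.97 and 6.61 on the young arrays. Slc6a3, the dopamine transporter of the same neurons, stood at 8.24, 6.14, 5.94, 6.62 and 5.8 in that order. For all of these genes 1 array, the aged naive one, was high, and the others named here lay between 5.8 and 6.97. Calb2, calretinin of thalamic neurons and interneurons, stood at 8.56 on the aged naive and 7.36 on the young naive array, and Slc17a6, the glutamate transporter of subcortical neurons, at 8.89 and 7.88. Their 3 d levels in aged rats were 6.0 and 6.36. Shox2, a transcription factor of the thalamus, stood at 7.5 naive and 5.56 at 3 d in aged rats. Pmch, the hypothalamic melanin-concentrating hormone precursor, stood at 7.35 and 5.38. These genes were lower at 3 d in young rats too, by -0.61 for Calb2, -1.52 for Slc17a6, -0.97 for Shox2 and -1.46 for Pmch. With the young naive array as the reference, the aged 3 d difference was -0.61 for Tph1, -0.51 for Th, -0.48 for Slc6a3 and -0.94 for Shox2, under 2-fold, and -1.35 for Calb2, -1.53 for Slc17a6 and -1.17 for Pmch.

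Most genes of the other regional lists had differences below 0 too, and most did not reach 2-fold. On each of these lists the share at least 2-fold lower nonetheless lay above the 0.676% of all genes. Of 7 midbrain monoamine genes above the filter 2 (Th and Slc6a3) were at least 2-fold lower, and all 7 were below 0, with a median of -0.58. Slc18a2, which loads monoamines into vesicles, stood at 6.71 on the aged naive, 6.03 on the aged 3 d and 6.25 on the young naive array, and Ddc, which makes dopamine from its precursor, at 7.48, 6.89 and 6.96. For both of them, as for Th and Slc6a3, the aged naive array was the higher of the naive arrays. The transcription factors Pitx3 and Fev differed by -0.23 and -0.23, and 6, among them the serotonin genes Tph2 and Slc6a4, were below the filter. Of 6 pineal and pituitary genes 2 (Tph1 and the pituitary hormone subunit Cga, 7.36 and 6.05) were at least 2-fold lower. All 6 were below 0, among them the melatonin enzymes Aanat (7.89 and 7.81) and Asmt (7.45 and 7.25), which did not reach 2-fold. With the young naive array as the reference, the difference of Cga turned to 0.066, and the median of the midbrain list was -0.19 and that of the hypothalamic list -0.091. Of 14 thalamic genes 4 and of 12 hypothalamic genes 1 was at least 2-fold lower, with 12 and 10 below 0 and medians of -0.44 and -0.4. Of 12 genes of hippocampus and cerebellum 1, Calb1, was at least 2-fold lower and 11 were below 0, with a median of -0.33. Among the 74 genes at least 2-fold lower, 13 (17.6%) stood at least 0.5 higher on the aged than on the young naive array, against 106 of all 10947 (0.968%). The aged naive array enters both quantities. Which tissue the naive pools held was not given, and the part of dissection in these differences was not tested.

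**Figure D4:**
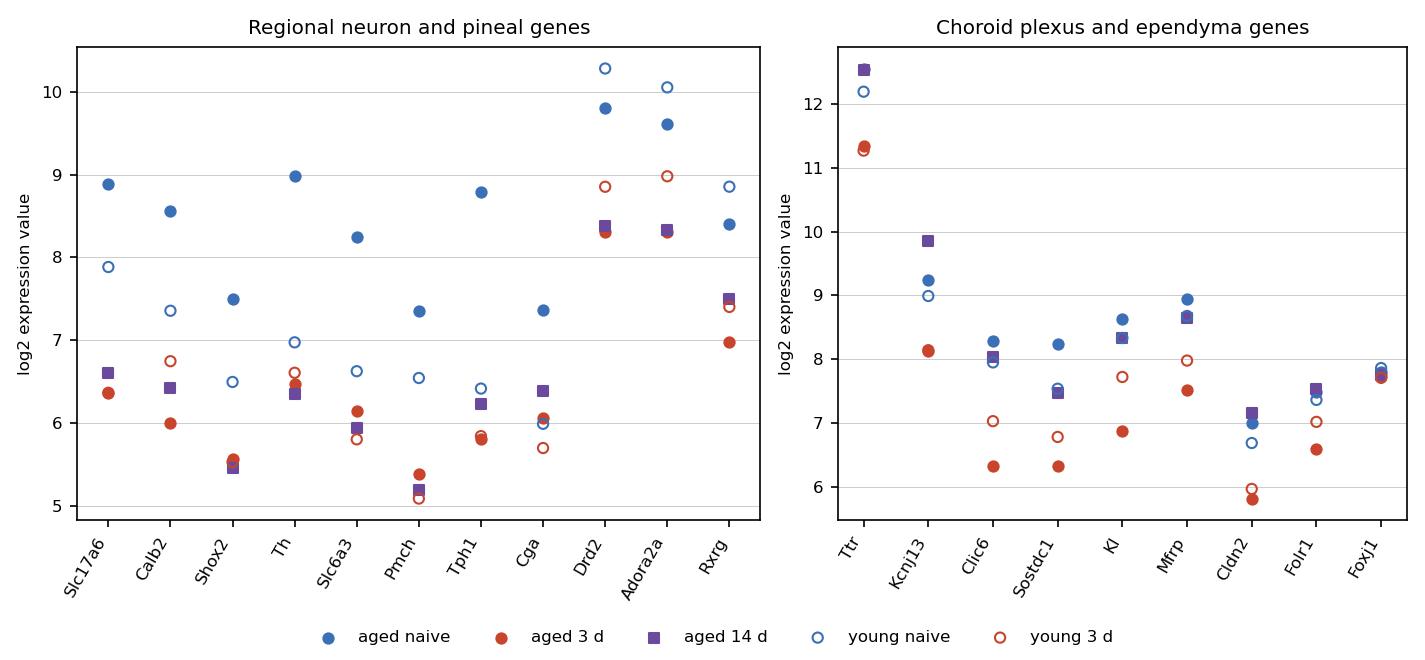
Log2 expression values of regional neuron, pineal and pituitary genes (left) and of choroid plexus and ependyma genes (right) on 5 arrays, 1 point an array. The aged naive point is the highest for Th, Slc6a3, Tph1 and Cga, with the other arrays close together, whereas for Drd2, Adora2a and Rxrg the naive points of both ages lie above the stroke points, and for Clic6, Kl and Mfrp the aged 14 d points lie back near the naive ones.

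Choroid plexus genes were lower at 3 d. Of 15 genes of choroid plexus and ependyma above the filter 6 were at least 2-fold lower and 0 higher, with a median of -0.9 in aged and -0.34 in young rats. The aged naive array lay higher than the young one for this list, and against the young naive array the aged median was -0.59. Ttr, the thyroid hormone carrier that dominates choroid plexus RNA, stood at 12.55 on the aged naive, 11.34 on the aged 3 d and 12.53 on the aged 14 d array. The chloride channel gene Clic6 stood at 8.28, 6.32 and 8.03, the Wnt and BMP antagonist Sostdc1 at 8.23, 6.33 and 7.47, and klotho (Kl) at 8.63, 6.88 and 8.33. The potassium channel Kcnj13 and the tight junction gene Cldn2 differed by -1.12 and -1.19. The ependymal gene Foxj1, which drives motile cilia, was at its naive level (-0.061), as was the water channel Aqp1 (-0.042). Mfrp (8.94 and 7.52) and the serotonin receptor Htr2c, which choroid plexus and neurons both carry (9.88 and 8.28), were also among the 20 genes furthest below naive. The others were Bex4 (-1.66) and the adenylyl cyclase Adcy8 (-1.57). The amount of choroid plexus in each sample was not measured, and its part was not tested.

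The last comparison set the aged difference beside the young one, which shares no array with it. In young rats, 760 genes (6.94%) were at least 2-fold higher at 3 d than naive and 38 (0.347%) at least 2-fold lower. Across the 10947 genes the differences of both ages correlated with r = 0.883 (Spearman's rho 0.774), a description across genes, which are not independent and share the arrays' platform. A total of 538 genes were at least 2-fold higher at both ages, 90.1% of the aged and 70.8% of the young genes, and all 597 aged genes had young differences above 0. Of the lower genes 13 were shared, 17.6% of the aged and 34.2% of the young ones, and 73 of the 74 aged genes had young differences below 0. Over the 597 genes the median difference was 1.475 in aged rats, where they were chosen, and 1.646 in young rats. Over the 74 it was -1.189 in aged and -0.725 in young rats.

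Among the 10 genes whose aged difference lay furthest below the young one, most differed in their naive levels. RT1-Da, Cd74, RT1-Ba, Tph1, Th and Calb2 stood at least 1 higher on the aged than on the young naive array. Both naive arrays enter the quantity by which these genes were chosen, so the choice itself favours a higher aged naive level. Serpina3n (2.47 in aged and 4.24 in young rats), Fam111a, a replication-linked protease (0.98 and 2.76), and Glycam1, a mucin-like ligand of L-selectin (-0.2 and 1.32), had like naive levels at both ages and lower 3 d levels in aged rats. Their aged 3 d levels were 8.41, 7.02 and 5.96, against 10.4, 8.93 and 7.51 in young rats. Of the naive and 3 d arrays, Fam111a and Glycam1 reached the overall median that the naming rule asks for on the young 3 d array alone. Their lower aged 3 d levels were therefore built into the choice. The aged 3 d level of Glycam1 also lay below the 40th percentile of that array (6.567). Slc9a4, a sodium-proton exchanger that also stood over 1 higher on the aged naive array, went opposite ways, with 7.28 and 6.42 in aged and 6.19 and 6.83 in young rats. On the other side, the aged difference exceeded the young one by about 1 for Eml5 (0.25 and -0.93), Plekhn1 (0.92 and -0.24), Fcho1 (0.25 and -0.85), Rtbdn (0.4 and -0.7), Hapln2 (0.6 and -0.49), the noncoding RNA Meg3 (0.61 and -0.4) and Leng8 (1.11 and 0.12). The other probe set of Eml5 differed by -0.23 in aged rats. Next came C14h1orf146 (-0.11 and -1.09), the NAD synthesis gene Nmnat1 (0.51 and -0.46) and Vwa5b2 (0.37 and -0.56). With 1 pool a group, none of these age differences was tested.

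**Figure D5:**
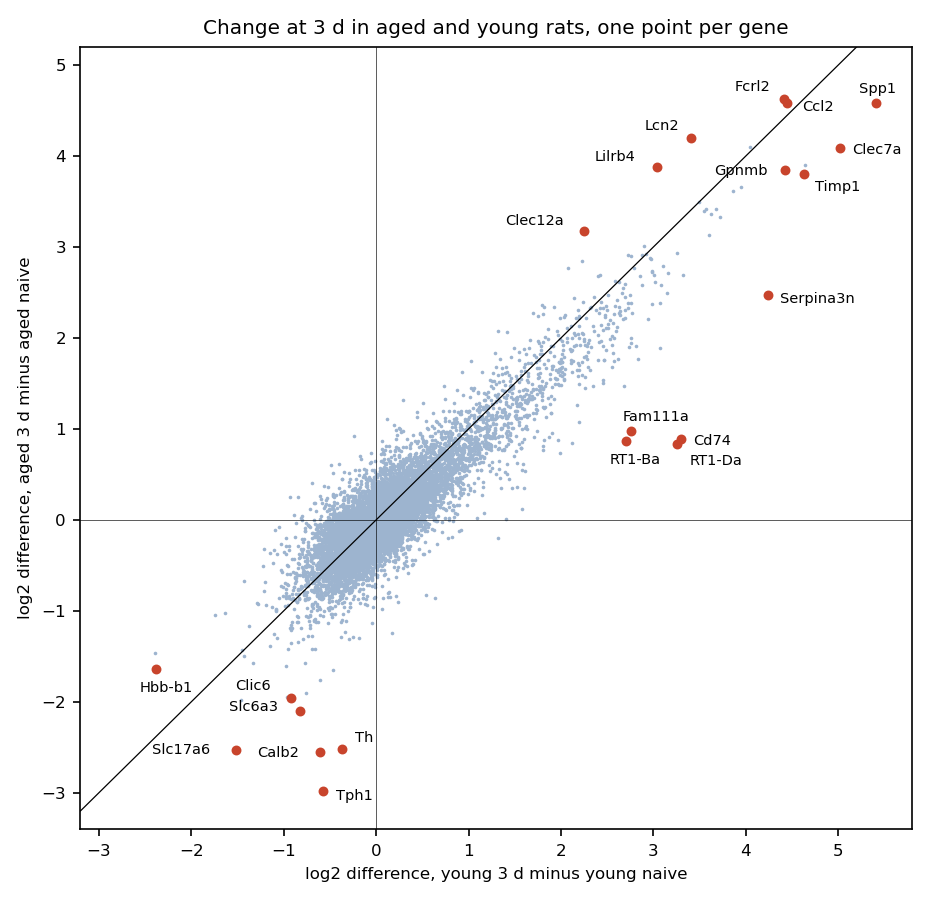
Log2 difference at 3 d in aged rats (vertical axis) against that in young rats (horizontal axis) for 10947 genes, 1 point a gene, with the line of equal differences. Most points lie along the line, while Cd74, RT1-Da, RT1-Ba, Fam111a and Serpina3n lie below it among the higher genes and Tph1, Th, Calb2 and Slc6a3 lie below it among the lower ones.

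The aged pools taken 14 d after stroke give a later view of the same genes against the same naive array, so the differences share that array and are set side by side only. For the 597 genes at least 2-fold higher at 3 d the median difference was 1.475 at 3 d and 1.675 at 14 d. The lists differed in the order of these values. Mitosis had medians of 2.04 and 0.36, reactive astrocytes 1.57 and 1.07, interferon-stimulated genes 1.09 and 2.25, and complement 0.96 and 2.32. Choroid plexus and ependyma had -0.9 and -0.024, and striatal projection neurons -0.87 and -0.99. Lcn2 stood at 10.8 at 3 d and 8.27 at 14 d, Serpina3n at 8.41 and 6.39, and Tagln at 10.74 and 8.5, whereas Cxcl13 stood at 7.7 and 10.26, Cd68 at 10.31 and 11.48, and Cd4 at 9.58 and 11.05.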

How the data were processed

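Tissue around the infarct, or naive brain tissue, was microdissected, and total RNA was taken up in TRIzol and freed of DNA on RNeasy Plus columns, per the labels' protocols. The labels state that it was amplified with the WT Expression Kit, labelled with biotin and hybridised to Affymetrix whole-transcript arrays, 1 array of pooled RNA for each of 6 groups. The deposited table holds 1 value for each probe set on each array, taken here as log2. The log base is not stated. It was inferred from values that run from 1.816 to 13.656, and every fold depends on it. R 2.14.0 and affy were used, per the submitters' processing notes. How background and scale were treated, and with which build, is not given in the sources used here. Medians of the arrays were nearly equal, and such a common scale removes any change of total RNA. The number of arrays limits the precision, and a batch cannot be told apart from a group.

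Of 28826 probe sets 15209 had 1 gene symbol, 306 had several and 13311 were unnamed here. Of the first, 15178 were found in the gene table of RefSeq (assembly GRCr8). Genes below the 40th percentile on all 6 arrays were left out. No model was fitted and no test was made. The functions were checked on simulated arrays with a known set of changed genes. Members and gene lists were chosen with earlier results of these data known. Of 1537 list entries 1347 matched by symbol, 23 by synonym and 167 did not. The naming rule took the 20 largest differences in each direction, up to 6 largest and 2 smallest per list, the 10 highest and 10 lowest age differences of the response among genes that reach the overall median on 1 or more of the 4 arrays concerned, and genes whose promoter is shown. Locus-style names and olfactory, vomeronasal and taste receptors (58 genes above the filter) were passed over. Promoters came from RefSeq. Alternatives were the scale, the filter, the choice of probe set, the fold and, chosen after seeing the data, the naive reference. Python 3.11.15, numpy 2.4.6, pandas 2.3.3 and matplotlib 3.10.9 were used.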

Additional observations from a re-analysis of the deposited data

Results flagged for a closer look

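Slc9a4, a sodium-proton exchanger, had a difference of -0.863 in aged and 0.64 in young rats between the 3 d and the naive array, so that both ages moved in opposite directions. The aged naive array was the highest of these 4 arrays for this gene (7.28), and the difference between the ages was not tested.

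Probe sets without a gene name here were left out of all comparisons, although many carried signal. Of 7126 unnamed probe sets above the filter 213 (2.99%) were at least 2-fold higher on the aged 3 d than on the aged naive array and 58 (0.814%) were at least 2-fold lower. Their differences reached 4.96 and -2.71. What they measure was not analysed here.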

How the results depend on the processing

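With 1 array a side no spread between replicates is known, and a list median counts below as moved past 0.2. The counts of 597 higher and 74 lower genes were 1264 and 607 at a fold of 1.5 and 126 and 5 at a fold of 4. Under the other scales, filters, probe set choices and naive references they stayed within 1.5 times, between 540 and 664 higher and between 64 and 105 lower. Without a filter, medians were -0.036 for CXC and CX3C chemokines, 1.08 for monocytes and neutrophils, -0.155 for mast cells, 1.67 for NADPH oxidase, 0.757 for proteases, -0.234 for midbrain monoamine neurons, 0.434 for S100 proteins and annexins and -0.189 for red cells. With the filter on the aged 3 d and aged naive arrays they were 0.348 for CC chemokines, 0.291 for chemokine receptors, 2.09 for monocytes and neutrophils and 0.341 for lymphocytes. With the filter at the 60th percentile they were 0.754 for CC chemokines, 0.541 for chemokine receptors, 1.9 for pattern recognition receptors, 2.25 for monocytes and neutrophils, 0.878 for lymphocytes, 1.24 for MHC class II, 1.45 for complement, 0.703 for collagens, -1.12 for choroid plexus and ependyma, -0.711 for thalamus, -2.31 for midbrain monoamine neurons and -1.53 for pineal and pituitary, since fewer genes enter. With the young naive array as the reference, chosen after seeing the data, they were 1.47 for pattern recognition receptors, 1.71 for homeostatic microglia, 2.1 for monocytes and neutrophils, 1.01 for MHC class I, 1.59 for MHC class II, 1.54 for complement, 2.04 for Fc receptors, 2.21 for NADPH oxidase, -0.586 for choroid plexus and ependyma, -1.34 for striatal projection neurons, -0.091 for hypothalamus, -0.189 for midbrain monoamine neurons, 1.0 for S100 proteins and annexins and -2.14 for red cells, and Cga turned to 0.066. With the mean of both naive arrays they were 1.91 for monocytes and neutrophils, 1.41 for MHC class II, 1.19 for complement, 1.91 for Fc receptors, -1.09 for striatal projection neurons, -0.327 for midbrain monoamine neurons and -1.84 for red cells. Beyond what a filter or reference changes by construction, the cause was not tested. With the array medians made equal, 5 of 454 named genes dropped below 2-fold and 4 passed it. The naive reference mattered more. With the young naive array, 275 of the 454 stayed the same and 144 moved by at least 0.2 without crossing 2-fold. Another 14 dropped below 2-fold, 20 passed it and 1 (Cga) changed sign. With the mean of both naive arrays, 384 stayed the same, 53 moved, 7 dropped below 2-fold and 10 passed it. No paired analysis was possible because each group is 1 array.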
